A study of Danio rerio with 25 samples.

Results

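The miR-17-92 cluster is a polycistron, a single primary transcript cut into several hairpins, each of which yields a mature miRNA. The core members described here are miR-17a, miR-18a, miR-19a, miR-19b, miR-20a and miR-92a (dre-mir-17a, dre-mir-18a, dre-mir-19a, dre-mir-19b, dre-mir-20a and dre-mir-92a in the table). They were taken from the deposited hairpin table by name, with numbered copies of a hairpin summed, which gave 6 miRNAs from 8 of the 346 hairpin rows, or 6 of 217 miRNAs in all. miR-17a and miR-92a have 2 rows each and the other members 1 row each. All 6 members passed the filter on low counts, which kept 197 of the 217 miRNAs.

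Small RNA was sequenced from the brain of zebrafish (Danio rerio), all male and of strain AB JxTü. The fish were 6, 12, 24, 36 or 42 months old, and each age is represented by 5 libraries, 25 together. No transgene is named at 6 and 24 months. The 12-month fish carried Tg(flk:mCherry), the 36-month fish Tg(pu.1:GFP) and the 42-month fish Tg(wt1a:GFP), so that line and age cannot be told apart except in 24 against 6 months. Each 6-month title carries a pair of numbers where the other titles carry a single one, and no meaning is stated for this. Whatever it marks cannot be told apart from age in any comparison against 6 months, 24 against 6 months included. In bulk brain, fewer cells of a type and less RNA per cell cannot be told apart.

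In mammals the cluster is known for promoting cell proliferation and survival, in part by repressing cell-cycle inhibitors and the pro-apoptotic protein BIM. Its members fall into seed families. miR-17 and miR-20a share a seed, miR-18a has a closely related one, miR-19a and miR-19b share another, and miR-92a belongs with miR-25, miR-363 and miR-92b. In the brain of mice the cluster has been studied in neural progenitors and in new neurons, and miR-92a also in endothelium.

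In the RefSeq gene table of the GRCz12tu assembly, mir-17a-1, mir-18a, mir-19a, mir-20a, mir-19b and mir-92a-1 lie next to each other as a group of 6 hairpins. The second copies, mir-17a-2 and mir-92a-2, lie on another chromosome as a group of 3 with mir-18b, a paralog of miR-18a. Summing copies by name therefore joins reads from both groups for miR-17a and miR-92a, and only for these members. Further paralogs form the groups of mir-18c, mir-20b, mir-19c and mir-363, and of mir-93, mir-19d and mir-25, and mir-92b stands alone.

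Library totals ranged from 3983783 to 20924118 counts, with a median of 7303502. The summed level of the brain list, which includes miR-9 and miR-124, lay between 117358 and 164197 CPM (counts scaled to a common library total), and none of its 5 members was at 0 in any library. In 7 libraries the summed level of the epithelial miR-200 family or of the skin miRNAs (miR-203a, miR-203b, miR-205) was above 2000 CPM, a limit taken from earlier work on these data. They comprise 36-month replicate 1, replicates 1, 2 and 5 of the 6-month group and replicates 3, 4 and 5 of the 12-month group, and the main calls are also given without them. Replicates are not stated to be separate animals, so that p-values measure only the spread between these libraries.

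The 6 members together took between 1.49% and 1.94% of all miRNA counts in a library, with a median of 1.64%. miR-92a alone supplied between 87.3% and 93.1% of that sum. It ranked between 12th and 20th of the 217 miRNAs in a library. miR-19b held 3.88% to 7.30% of the members' sum, and miR-17a, miR-19a and miR-20a each between 0.773% and 1.90%. miR-18a was the scarcest at 0.170% to 0.310%. The raw counts show the depth behind these levels. miR-92a had 55270 to 369873 counts per library, whereas miR-18a had 134 to 860, a counting error of 8.64% at the lowest and 3.41% at the highest count. Shares of members also carry differences in how well each small RNA is ligated and sequenced, and were not compared as amounts in the cell.

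**Figure D1:**
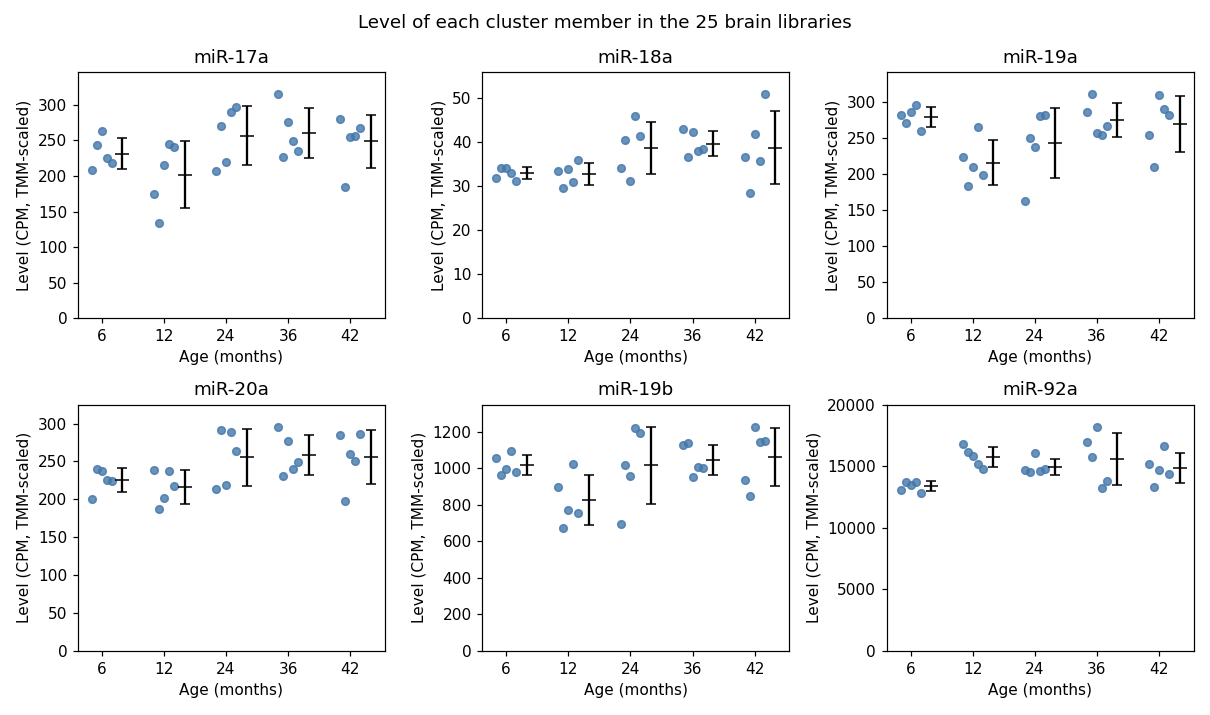
Level of each member (CPM scaled by TMM-adjusted library size, linear axis from 0) against age in months, 1 point per library, with the mean and SD of the 5 libraries beside the points. miR-92a lies lowest at 6 months, where its 5 libraries sit between 12871 and 13765 CPM, and the other 5 members have their lowest mean at 12 months.

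miR-92a, the last hairpin of the cluster and the one known for repressing integrin and cell-survival genes in endothelium, was higher at 12 and at 36 than at 6 months. Levels of single miRNAs below are CPM scaled by library sizes adjusted with TMM (trimmed mean of M-values), and summed levels of lists are scaled by library totals. The 6-month replicates 1 to 5 held miR-92a at 13044, 13719, 13511, 13765 and 12871 CPM, and the 12-month replicates at 16821, 16163, 15801, 15215 and 14797 CPM. Every 12-month library lay above every 6-month library. The 24-month libraries held 14684, 14567, 16123, 14617 and 14751 CPM, again all above those of 6 months. At 36 months the values spread widely, at 16976, 15795, 18195, 13213 and 13820 CPM, and the 42-month libraries held 15210, 13301, 14705, 16674 and 14387 CPM. Both of these ages overlapped 6 months.

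From the lowest to the highest, the means of miR-92a were 13382 ± 404 CPM (SD, n = 5) at 6 months, 14855 ± 1234 at 42 months, 14948 ± 660 at 24 months, 15600 ± 2094 at 36 months and 15760 ± 793 at 12 months. Only the step from 6 to 42 months in this order was larger than the wider SD of the neighbouring pair. In the quasi-likelihood test of edgeR with Benjamini-Hochberg adjustment over 197 miRNAs, the log2 change at 12 against 6 months was 0.24 (SE 0.07, adjusted p 0.0305). It was 0.22 at 36 against 6 months (SE 0.07, adjusted p 0.0427). At 24 against 6 months it was 0.16 (SE 0.07, adjusted p 0.0978) and at 42 against 6 months 0.15 (SE 0.07, adjusted p 0.103), neither of which passed 0.05.

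These calls were narrow. With library totals in place of TMM, the change of miR-92a was 0.19 at 12 months (adjusted p 0.053) and 0.12 at 36 months (0.186), and at 24 months it turned to -0.01. That scaling also moved the median change of all miRNAs at 24 against 6 months from 0.04 to -0.14. Leaving out 1 library ended the 12-month call in 7 of 25 cases, namely 6-month replicate 1, 3, 4 or 5 or 12-month replicate 1, 2 or 3, with changes from 0.21 to 0.25 and adjusted p up to 0.0888 over all 25 cases. It ended the 36-month call in 10 of 25 cases, namely 6-month replicate 1, 2, 3 or 5, 12-month replicate 3, 24-month replicate 2, 36-month replicate 1, 2 or 3 or 42-month replicate 1, with changes from 0.16 to 0.28 over all 25 cases. The highest adjusted p was 0.150, without 36-month replicate 3, and limma-voom gave 0.0505 for the same change. Without the 7 libraries rich in epithelial miRNAs, which left 2 libraries at 6 and 2 at 12 months, the changes were 0.26 (SE 0.12, adjusted p 0.193) and 0.18 (SE 0.11, adjusted p 0.307).

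miR-19a and miR-19b, which share a seed, had their lowest mean at 12 months. miR-19a stood at 281, 270, 286, 295 and 260 CPM in the 6-month replicates 1 to 5 and at 222.7, 183, 210, 264 and 199 CPM in those of 12 months. Among the 12-month libraries replicate 4 reached into the 6-month range, and the other 4 lay below it. At 24 months miR-19a was spread from 162 CPM in replicate 1 to 282 CPM in replicate 5. Its 36-month libraries lay between 254 and 310 CPM and its 42-month libraries between 210 and 309 CPM, around the 6-month level. The log2 change at 12 against 6 months was -0.37 (SE 0.13, adjusted p 0.0593), which missed the threshold. It passed in 7 alternative analyses, for example at an adjusted p of 0.0132 with DESeq2, and did not with limma-voom (0.0628) or without the epithelial-rich libraries (-0.53, adjusted p 0.162).

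miR-19b, the more abundant of the pair, followed miR-19a. Its 6-month libraries held 1058, 965, 994, 1096 and 978 CPM and its 12-month libraries 897, 673, 769, 1025 and 758 CPM. Replicate 4 was again the high library of the 12-month group. Its mean was 824 ± 137.8 CPM at 12 months, 1016 ± 212 at 24 months, 1018 ± 56.3 at 6 months, 1045 ± 83.0 at 36 months and 1061 ± 159 at 42 months. The change at 12 against 6 months was -0.30 (SE 0.13, adjusted p 0.103), and the other ages differed from 6 months by 0.06 or less in either direction.

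miR-17a and miR-20a, which in mammals repress cell-cycle inhibitors such as p21, had similar levels and a similar course. miR-17a averaged 232 ± 21.5 CPM at 6 months, 202 ± 47.1 at 12 months, 257 ± 41.1 at 24 months, 261 ± 35.5 at 36 months and 249 ± 36.9 at 42 months. Its 2 lowest libraries were 12-month replicates 1 and 2, at 174 and 134 CPM, while the other 12-month libraries lay between 216 and 245 CPM. miR-20a averaged 225 ± 15.7, 217 ± 22.5, 255 ± 37.5, 259 ± 26.9 and 256 ± 36.0 CPM in order of age. Its libraries at 6 months overlapped those of every later age. Neighbouring means in the order of levels lay within the SD of the pair for miR-17a, miR-18a, miR-19a, miR-19b and miR-20a.

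miR-18a, of the seed family next to that of miR-17, was the scarcest member. It held 31.9, 34.2, 34.2, 33.1 and 31.2 CPM at 6 months and 43.0, 36.7, 42.3, 38.0 and 38.4 CPM at 36 months. Under TMM all 36-month libraries lay above all 6-month libraries, and the log2 change was 0.27 (SE 0.13, adjusted p 0.145). With library totals the change was 0.17 (adjusted p 0.380). The 42-month libraries were the most scattered, from 28.5 CPM in replicate 2 to 50.9 CPM in replicate 5.

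Across all 5 ages, 0 of the 6 members passed the test of any difference, against 47.7% of the 197 miRNAs tested. At an unadjusted p under 0.05 there was 1 member, miR-92a (adjusted p 0.0621), beside 111 of the 197 miRNAs. DESeq2 called 3 members (miR-19a, miR-19b and miR-92a) beside 57.9% of all miRNAs, and limma-voom 0 beside 31%. For the linear trend on age, 0 of 6 members were called against 21.3% of all miRNAs (7.61% upward). Beside 74 of the 197 miRNAs, 2 members had an unadjusted p under 0.05. These were miR-18a, whose slope on the log2 scale was 0.10 a year (SE 0.04, adjusted p 0.0544), and miR-20a, with 0.08 (SE 0.03, adjusted p 0.0615). DESeq2 called both (adjusted p 0.0205 for each) beside 28.9% of all miRNAs, and limma-voom called 0 members beside 23.9%. With library totals the slopes were 0.07 (adjusted p 0.183) and 0.05 (0.217). All 6 slopes were above 0, from 0.03 to 0.10 with a median of 0.07, beside a median of -0.01 over all miRNAs, and that of miR-92a was -0.018 without the 6-month group. With library totals they ran from 0.0032 for miR-92a to 0.07 for miR-18a, with a median of 0.04 beside -0.034 for all miRNAs. For departure from the line, 0 of 6 were called against 25.9% of all. At an unadjusted p under 0.05 there were 2, miR-19a and miR-92a, beside 79 of the 197 miRNAs. DESeq2 called both, beside 33.5% of all, and limma-voom called neither, beside 19.3%.

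Set against 6 months, the ages gave few calls among the members. At 12 months 1 of 6 was called, miR-92a, against 14.2% of all miRNAs, with a median change of the members of -0.13. Its 5 libraries were also the only ones of a member that did not overlap, against 13.7% of all miRNAs. At 24 months, the pair of ages with no transgene named, 0 of 6 were called against 32% of all, with a median of the members of 0.15. At an unadjusted p under 0.05 there was 1 member, beside 85 of the 197 miRNAs. DESeq2 called 0 members beside 36% of all, and limma-voom 0 beside 23.9%. With library totals miR-19a was called lower (-0.37 in place of -0.20, adjusted p 0.0279), and the median of the members was -0.018 beside -0.14 for all miRNAs. Under TMM miR-92a was the member without overlap, against 17.8% of all. At 36 months 1 of 6 was called, miR-92a, against 15.7% of all (8.12% higher and 7.61% lower). Under TMM miR-18a was the member without overlap, against 11.7% of all. At 42 months 0 of 6 were called against 35.5% of all, with 0 at an unadjusted p under 0.05, beside 95 of the 197 miRNAs. With limma-voom 0 members were called, beside 28.9% of all. The libraries of every member overlapped those of 6 months, whereas 26.9% of all miRNAs did not overlap. DESeq2 called miR-92a alone (0.17, adjusted p 0.0386), beside 40.1% of all miRNAs. edgeR also called miR-92a at 42 months with DESeq2 size factors (adjusted p 0.0464) and without a filter on low counts (adjusted p 0.0218). Under both settings the count of all miRNAs called was within 1.5 times that of the main fit. At 42 against 24 months 0 of 6 were called, against 1.02% of all, with 0 at an unadjusted p under 0.05, beside 33 of the 197 miRNAs. DESeq2 called 0 members beside 5.58% of all, and limma-voom 0 beside 1.52%. Members without overlap numbered 0, against 4.57% of all. The comparisons against 6 months share the same 5 libraries.

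**Figure D2:**
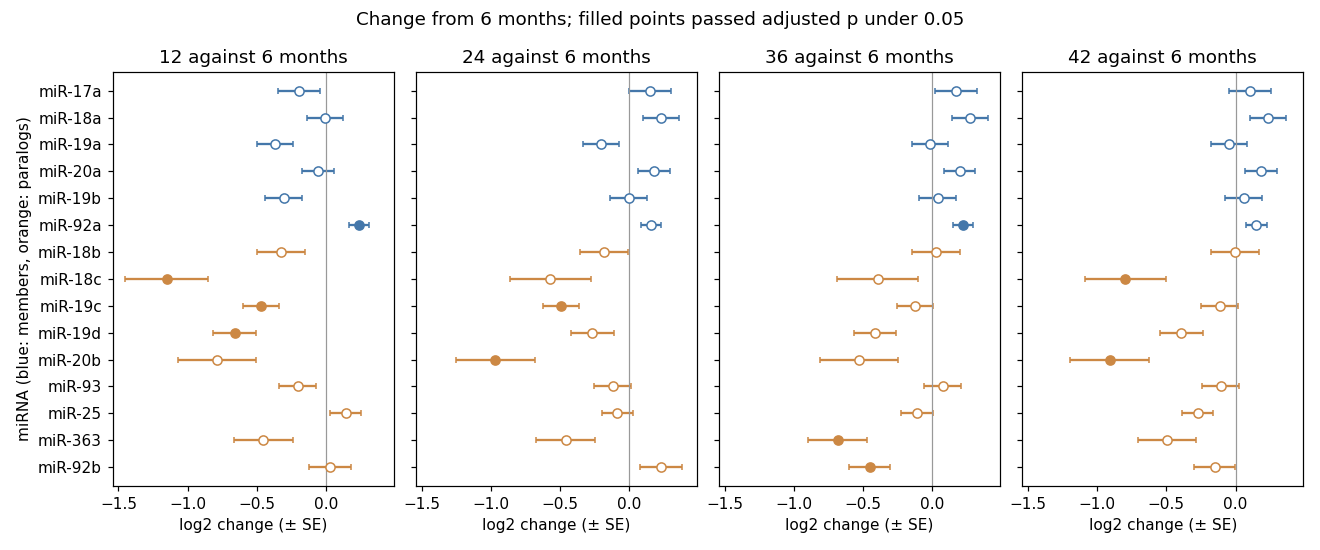
Log2 change from 6 months (horizontal axis, with the standard error as bars) for the 6 members in blue and 9 paralogs and seed mates in orange, 1 panel per age. Filled points passed an adjusted p under 0.05, and among the members only miR-92a at 12 and 36 months is filled.

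The 9 paralogs and seed mates (miR-18b, miR-18c, miR-19c, miR-19d, miR-20b, miR-25, miR-92b, miR-93 and miR-363) were all tested. The test of any difference called 6 of them, beside 47.7% of all miRNAs, and without the epithelial-rich libraries only miR-92b (adjusted p 0.0326). At 12 against 6 months 3 were lower and 0 higher, against 7.11% of all miRNAs lower, and miR-19d fell from 218 ± 15.9 to 138.1 ± 25.0 CPM (log2 change -0.66, SE 0.15, adjusted p 0.00580). miR-19c fell by 0.47 (SE 0.13, adjusted p 0.0191) and miR-18c, at 3.57 and 1.60 CPM, by 1.15 (SE 0.30, adjusted p 0.0124). At 24 months miR-19c and miR-20b were lower, at 36 months miR-92b and miR-363, and at 42 months miR-18c and miR-20b, 2 of 9 each time, beside 18.3%, 7.61% and 21.3% of all miRNAs lower. Low levels lay behind the calls of miR-20b, at 5.53 CPM at 6, 2.83 at 24 and 2.93 at 42 months. The same held for miR-18c, at 2.04 CPM at 42 months. Without the epithelial-rich libraries miR-18c (-1.51, adjusted p 0.0512), miR-19c (-0.76, 0.0512) and miR-19d (-0.73, 0.0924) were no longer called at 12 months, nor were miR-19c (0.0805) and miR-20b (0.0624) at 24 months, whereas the calls at 36 and 42 months held. None of the 9 was called higher in these comparisons. With library totals miR-19d was also called lower at 24, 36 and 42 months, miR-25 at 24 and 42 months and miR-363 at 24 months. That scaling called 31.5%, 19.3% and 34.5% of all miRNAs at 24, 36 and 42 months, in either direction. miR-25 was the 1 paralog called for the trend (-0.10 per year, SE 0.03, adjusted p 0.0236), beside 13.7% of all miRNAs with a falling trend, and was not called without the epithelial-rich libraries (-0.12, adjusted p 0.0981). With library totals the trends of miR-363 (-0.18, adjusted p 0.0399) and miR-92b (-0.13, adjusted p 0.0379) were also called, beside 24.4% of all miRNAs. miR-92b, a seed mate of miR-92a, held 16364 ± 2371 CPM at 6 and 11944 ± 2855 CPM at 36 months, where its log2 change was -0.45 (SE 0.15, adjusted p 0.0427) and that of miR-92a 0.22.

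The 2 hairpin copies of miR-92a did not keep the same ratio over the ages. The ratio of mir-92a-1, the copy beside the other core members, to mir-92a-2 was 1.61, 1.57, 1.57, 1.58 and 1.55 in the 6-month replicates 1 to 5 and 2.05, 2.04, 1.98, 2.09 and 2.12 in those of 42 months. No 42-month library came near the 6-month range. At 12 months the ratio was 1.83, 1.75, 1.65, 1.64 and 1.75, at 24 months 1.84, 2.06, 1.87, 1.96 and 1.95, and at 36 months 1.89, 1.89, 1.93, 1.83 and 1.96. The mean ratio was 1.57 ± 0.0223 (SD, n = 5) at 6 months, 1.72 ± 0.0804 at 12 months, 1.90 ± 0.0471 at 36 months, 1.94 ± 0.0858 at 24 months and 2.05 ± 0.0524 at 42 months. Both copies lie in the same library, so that the ratio does not depend on the scaling. The share of the first copy had 95% Wilson intervals of 0.306 to 0.814 percentage points in width, which cover counting error only.

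**Figure D3:**
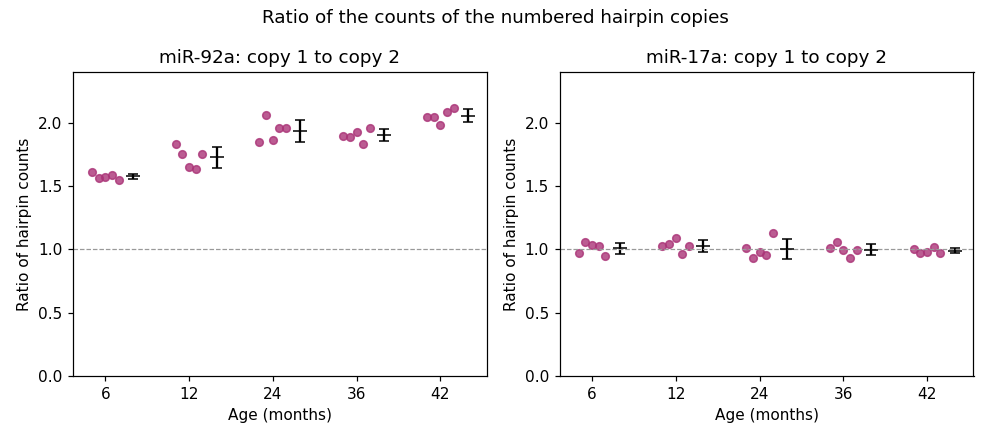
Ratio of the counts of copy 1 to copy 2 of a hairpin (linear axis from 0, dashed line at 1) against age in months for miR-92a and miR-17a, 1 point per library, with mean and SD beside. The miR-92a ratio lies between 1.55 and 1.61 at 6 months and between 1.98 and 2.12 at 42 months, whereas the miR-17a ratio stays between 0.928 and 1.13 at all ages.

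The log2 ratio of the miR-92a copies was higher than at 6 months by 0.13 at 12 months, 0.30 at 24, 0.27 at 36 and 0.38 at 42 months, with no overlap of libraries in any of these. How often the copies of other miRNAs did not overlap was counted only for 42 against 6 months, as given below. For 12, 24 and 36 months no such share is at hand. Each gave an exact two-sided permutation p of 0.00794, the smallest that splits of 5 against 5 can give, and an adjusted p of 0.0190 over 12 tests of the miR-92a and miR-17a copies. The test was added after the counts had been seen. Between 42 and 24 months the difference was 0.09 and the ranges overlapped (exact permutation p 0.0317, adjusted 0.0635). The log2 ratio of the miR-17a copies differed by 0.04 or less in the 6 pairs of ages tested, with an exact permutation p of 0.421 or more. Their counts were nearly equal at all ages, and how reads matching both copies were counted is not known, so they are no control for the miR-92a shift. Leaving out 1 library moved the miR-92a difference to between 0.37 and 0.40 at 42 months and to between 0.27 and 0.31 at 24 months. Without the epithelial-rich libraries the mean ratio was 1.58 at 6 months (n = 2), 1.79 at 12 (n = 2) and 1.90 at 36 months (n = 4).

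Among 43 miRNAs whose 2 most abundant copies had at least 20 counts in every library, the ratio of copies did not overlap between 42 and 6 months in 3, or 6.98%, one of which was miR-92a. Its shift of 0.38 was the second in size after that of miR-455 at 1.33, and the median shift over the 43, in either direction, was 0.02. In 29 of the 43, miR-17a among them, the copies had nearly equal counts, within 0.05 of a log2 ratio of 0, so that the 43 are mostly copies with no difference to shift. The mature miR-92a of both copies is known to be the same or nearly so, and the table does not say which reads set the copies apart or how reads that match both were counted.

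All hairpin rows were also fitted on their own, in a fit added after the counts had been seen. There mir-92a-1 was called against 6 months at every later age and mir-92a-2 at none. At 42 against 6 months mir-92a-1 was higher by 0.27 (SE 0.07, adjusted p 0.00589) and mir-92a-2 changed by -0.11 (SE 0.06, adjusted p 0.168), where 30.1% of 269 hairpin rows were called. At 24 against 6 months the values were 0.24 (adjusted p 0.0176) and -0.06 (adjusted p 0.514), with 24.9% of rows called. mir-92a-1 was also higher at 12 months (0.27, SE 0.07, adjusted p 0.0131, with 12.3% of rows called) and at 36 months (0.29, SE 0.07, adjusted p 0.00363, with 13.4%). Its trend was 0.06 a year (SE 0.02, adjusted p 0.0396, with 24.2% of rows called), a call that ended in 22 of 25 cases with 1 library left out. Both copies passed the test of any difference (adjusted p 0.0107 and 0.0287, with 42% of rows called), and neither was called for departure from the line (19.7% of rows) or at 42 against 24 months (2.23%). Leaving out 1 library ended the 24-month call of mir-92a-1 in 16 of 25 cases (adjusted p up to 0.131) and the 42-month call in 0 of 25 (up to 0.0355). Which copy moved depended on the scaling. With library totals only, mir-92a-2 fell at 24 months (-0.20, adjusted p 0.0356) while mir-92a-1 was at 0.09 (adjusted p 0.353), and at 42 months the first copy was higher (0.20, adjusted p 0.0287) and the second lower (-0.18, adjusted p 0.0485). The trend call of mir-92a-1 ended with library totals (0.04 a year, adjusted p 0.182). Without the epithelial-rich libraries neither copy was called at any age. mir-92a-1 then changed by 0.31 at 12 months (adjusted p 0.230), 0.17 at 24 months (0.445), 0.18 at 36 months (0.392) and 0.24 at 42 months (SE 0.12, 0.204), its trend was 0.03 a year (0.658), and mir-92a-2 was at -0.14 at 42 months (0.488). Leaving out 1 library ended the 36-month call of mir-92a-1 only without 36-month replicate 3 (0.22, adjusted p 0.058).

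The ratio of miR-18a to its paralog miR-18b also sets a hairpin of the first group against one of the second. It was 2.94 at 6 months as a geometric mean, with libraries from 2.15 to 4.04, and 3.38 at 42 months, from 3.02 to 4.03. At 12, 24 and 36 months it was 3.60, 3.91 and 3.43. The log2 differences from 6 months were all above 0, from 0.20 at 42 to 0.41 at 24 months. Ranges overlapped that of 6 months each time, and no difference passed (exact permutation p 0.0873 or more, adjusted 0.254 or more over 4 tests). miR-18b was scarce, at 11.4 ± 2.34 CPM at 6 months. Since even a difference of 0.41 did not pass, these tests cannot decide whether this pair shifted as the miR-92a copies did.

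Ratios within a library were also used to compare members with each other, as log2 of the count of a member over that of miR-92a. For no age was it computed how many of all miRNAs would pass, or not overlap, in their ratio to miR-92a. At 24 against 6 months the ratio of miR-19a to miR-92a was lower by 0.39, with all 5 libraries below those of 6 months (exact permutation p 0.00794, adjusted over 10 tests 0.0794). At 42 months it was lower by 0.21 (exact permutation p 0.0317, adjusted 0.159). With mir-92a-1 alone in the denominator the differences were -0.49 and -0.35, and both passed (adjusted exact permutation p 0.0397). Under TMM the log2 levels themselves changed by -0.20 for miR-19a and 0.16 for the summed miR-92a at 24 months. At 42 months these changes were -0.05 and 0.15. The ratios of miR-17a, miR-18a, miR-19b and miR-20a differed from 6 months by 0.19 or less in either direction at these ages (adjusted exact permutation p 0.794 or more).

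At 12 months all 5 ratios were lower than at 6 months, a comparison added after the values were seen. They share miR-92a as denominator, whose own log2 change was 0.24, so that the 5 tests are not independent. The log2 changes of the levels themselves were -0.37 for miR-19a, -0.30 for miR-19b, -0.20 for miR-17a, -0.06 for miR-20a and -0.01 for miR-18a, none of them called. The mean difference in log2 ratio was -0.61 for miR-19a, -0.55 for miR-19b, -0.46 for miR-17a, -0.30 for miR-20a and -0.25 for miR-18a. Each passed at an adjusted exact permutation p of 0.0265 to 0.0397 over 10 tests, and the libraries of miR-19a and miR-19b did not overlap. The share of all miRNAs whose ratio to miR-92a would do the same was not computed. At 36 months miR-19a alone passed, at -0.23 (adjusted exact permutation p 0.0265). The log2 change of its own level was then -0.02 and that of miR-92a 0.22. Without the epithelial-rich libraries, with 2 libraries left at each age and no test, the 12-month differences were -0.94 for miR-17a, -0.80 for miR-19a, -0.70 for miR-19b, -0.41 for miR-20a and -0.38 for miR-18a. The list levels that follow were scaled by library totals without TMM, unlike the levels of the members. Between 6 and 12 months the red blood cell list (miR-144 and miR-451) went from a summed 1818 CPM (1299 to 2711) at 6 months to 737 CPM (506 to 1046) at 12 months. The endothelial list (miR-126a, miR-126b) stood at 6665 and 5666 CPM and the oligodendrocyte list (miR-219, miR-338) at 16075 and 21321 CPM. The epithelial miR-200 list stood at 3956 ± 4235 and 841 ± 1167 CPM (SD, n = 5). Its 6-month mean rested on replicates 1 and 5, at 9033 and 8107 CPM. The other 6-month libraries reached at most 1301 CPM, below the highest 12-month library at 2900 CPM. The skin list went the other way, from 1523 ± 1372 to 2067 ± 1979 CPM. No list member was at 0 in any library. At 24, 36 and 42 months the red blood cell list stood at 837, 779 and 684 CPM and the oligodendrocyte list at 17329, 21171 and 20384 CPM, beside the levels and copy ratios of miR-92a at those ages. Their part in these results was not tested, and the transgenic line of the 12-month fish cannot be told apart from age.

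The levels of the 5 members other than miR-92a varied together from library to library, and the summed level of miR-92a did not go with them. Over the 25 libraries, Pearson's r of log2 CPM among the 10 pairs of these 5 members ran from 0.438 to 0.940 with a median of 0.657, and all 10 passed a permutation test (adjusted p 5.00e-05 to 0.0426 over 15 pairs). Spearman's rho ran from 0.408 to 0.885, with 1 pair, miR-18a with miR-19a, at an adjusted permutation p of 0.0665. With library totals in place of TMM all 10 pairs passed by Pearson's r, from 0.437 to 0.942. By rank miR-17a with miR-19a (rho 0.380, adjusted permutation p 0.102), miR-17a with miR-19b (0.426, 0.0654) and miR-18a with miR-19a (0.354, 0.123) then did not pass. Of all 19306 pairs of tested miRNAs, the median r was -0.01 and the 95th percentile 0.566. Below that percentile lay miR-18a with miR-19a, miR-19a with miR-20a and miR-18a with miR-19b, reached by 10.3%, 5.52% and 5.19% of all pairs. The share of all pairs that would pass the same permutation test was not computed. The 5 pairs with miR-92a had r from -0.116 to 0.235 and rho from -0.125 to 0.180. Of these pairs 0 passed (adjusted permutation p 0.346 or more for r, lowest unadjusted p 0.254). The miR-92a level in these pairs joins the copy beside the other core members with the copy on another chromosome. That of miR-17a joins 2 copies in the same way, and its r with miR-18a, miR-19a, miR-19b and miR-20a ran from 0.613 to 0.827. How reads matching both copies were counted is not known. Whether mir-92a-1, the copy beside the core members, varied with them on its own was not tested.

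**Figure D4:**
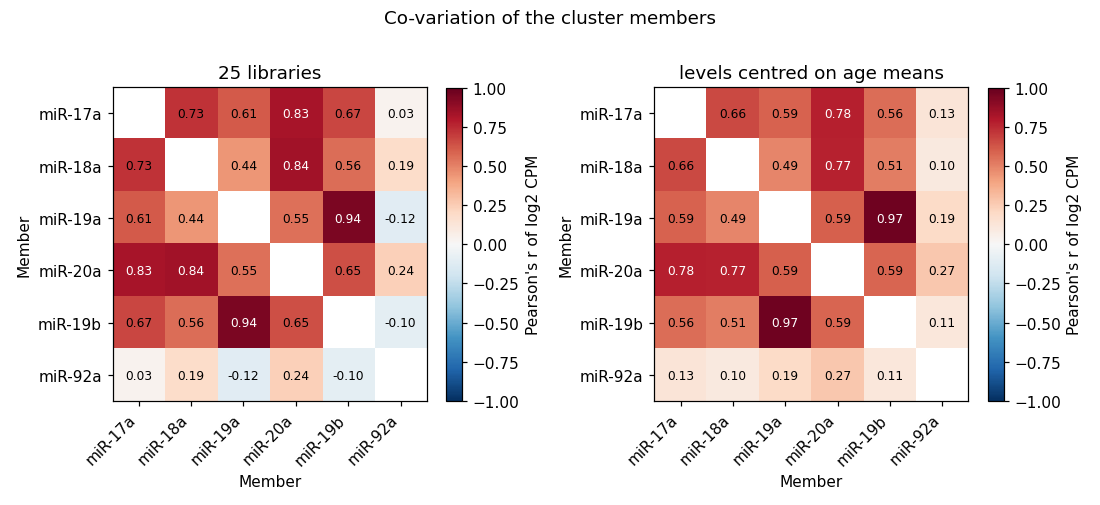
Pearson's r of log2 CPM for each pair of members, in cluster order on both axes, over the 25 libraries at left and after subtraction of the mean of each age at right. The block of miR-17a, miR-18a, miR-19a, miR-20a and miR-19b holds values of 0.438 and above at left. There the row of miR-92a, with its copies summed, holds values from -0.116 to 0.235.

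The closest pair was miR-19a with miR-19b, at r 0.940 and rho 0.865 (adjusted permutation p 5.00e-05 and 3.75e-05), reached by 0.140% of all pairs. miR-18a with miR-20a had r 0.837 and rho 0.840, and miR-17a with miR-20a 0.827 and 0.885, while miR-18a with miR-19a was the loosest at 0.438 and 0.408. Mature sequences within a seed family can be alike enough to share reads, and how far miR-19a and miR-19b or miR-17a and miR-20a did so is not known from the table. Leaving out the 2 libraries farthest from the median of the first member left the 10 pairs at r from 0.418 to 0.910 and the pairs with miR-92a at -0.068 to 0.416, the last for miR-17a with miR-92a.

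The pattern was in part also present within ages. After the mean of each age was subtracted, the 10 pairs had r from 0.485 to 0.969, of which 8 passed a permutation within ages. miR-18a with miR-19a (r 0.485, adjusted permutation p 0.102) and miR-18a with miR-19b (r 0.511, adjusted permutation p 0.0775) did not. These were reached by 7.48% and 6.38% of all pairs of tested miRNAs, whose 95th percentile within ages was 0.549. By rank, 4 of the 10 pairs passed at adjusted permutation p of 0.00446 or less. These were miR-19a with miR-19b and the pairs among miR-17a, miR-18a and miR-20a. Every pair that joined miR-19a or miR-19b to miR-17a, miR-18a or miR-20a had 0.101 or more. Within ages, co-variation between these 2 sets of members was thus not called by rank. The 5 pairs with miR-92a had r from 0.099 to 0.271, and 0 passed. 12-month replicate 2, 24-month replicate 1 and 42-month replicate 2 were each the lowest library of their age for miR-17a, miR-19a, miR-19b and miR-20a, at 183, 162 and 210 CPM of miR-19a. Without the epithelial-rich libraries the 10 pairs had r from 0.532 to 0.938 over 18 libraries, and all passed by Pearson's r. By rank 3 of the 10 did not, namely miR-19a with miR-17a (adjusted permutation p 0.124), with miR-18a (0.139) and with miR-20a (0.279), and the lowest r without the 2 farthest libraries was 0.312.

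Out of 169 other miRNAs whose mean level reached 10 CPM, those most like each member over the 25 libraries were ranked by Pearson's r, as a description. miR-26b came first for miR-17a (0.722), miR-18a (0.766) and miR-20a (0.829), and with age means subtracted these values were 0.762, 0.735 and 0.863. miR-93, a seed mate of miR-17, came second for miR-17a (0.684) and for miR-20a (0.726), with miR-26a next for both (0.555 and 0.714). miR-15a (0.687) and let-7a (0.674) followed for miR-18a. For miR-19a the closest were its paralogs miR-19c (0.787) and miR-19d (0.752) and then miR-18b (0.731). For miR-19b they were let-7a (0.810), miR-19d (0.746) and miR-18b (0.723). miR-92a was closest to miR-16c (0.624), miR-130a (0.620) and miR-101a (0.559), but without the 2 libraries farthest from the median miR-16c was at 0.414, miR-130a at 0.589 and miR-101a at 0.491. None of the other members' closest miRNAs appeared in its list. The levels compared come from the same libraries with the same scaling factor, and no p-value is given for a likeness chosen as the highest of 169.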

How the data were processed

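Per the labels' protocols, libraries were made from total RNA by the TruSeq small RNA protocol of Illumina. The submitters' processing notes name SAMtools 1.3.1-9, BWA 0.7.12-r1039, Trimmomatic 0.36 and CASAVA 1.8.4. The build, the annotation, the counting program and the treatment of reads matching several hairpins were not given in the sources used here. Raw counts make up the deposited table, 1 per hairpin and library, and were checked to be whole numbers. The rows of the members name no arm of the hairpin, and how reads of the arms were counted is not known here. Columns not used numbered 0.

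Copies were summed by name. Tests used R 4.3.3 with edgeR 4.0.16 (filterByExpr, count minimum 10, TMM, robust quasi-likelihood fit of all 25 libraries, Benjamini-Hochberg adjustment over 197 miRNAs, called under 0.05), and the SE was taken from the F statistic. DESeq2 1.42.0 and limma 3.58.1 were alternatives. Correlations used log2 CPM (prior count 2) and 100000 permutations, whose smallest p is 1e-05, and ratios of counts a pseudocount of 0.5 and all exact splits of 5 against 5. Named were all members, the 9 paralogs and, per member, the 3 miRNAs of highest r. The scripts were tested on simulated data. Replicates of 1 age had clearly different counts and were not merged. The members, lists and tests were chosen with earlier results of these data known. No mature sequence was used here.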

Additional observations from a re-analysis of the deposited data

Results flagged for a closer look

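A library was looked at again where it stood apart from the other 4 of its age for a member or for a ratio of copies, in 40 groups of 5 libraries, of which chance flags about 1 in 20. miR-17a in 42-month replicate 2 was at 185 CPM, below the other 42-month libraries, whose lowest was 255 CPM. miR-92a in 24-month replicate 3 was at 16123 CPM, above the other 24-month libraries, whose highest was 14751 CPM.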

How the results depend on the processing

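No paired analysis was possible because replicates are numbered in order of deposit and carry no pairing across ages. Depth limits miR-18a most, and changes of the members below the library spread could not be seen. Counts of called miRNAs not given here were within 1.5 times the reported count, and member values not given here kept their direction. With no turn in direction, 47 values came to pass and 15 ceased to pass the threshold under the other settings, and 41 and 56 with 1 library left out. The cause of the changes was not tested.

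For 42 against 24 months, where the count of called miRNAs was 2, it was 4 with DESeq2 size factors, library totals or a minimum of 10 CPM, 5 without a filter, 11 with DESeq2, 1 with the most abundant copy and 0 in a fit of the 10 libraries. Without the epithelial-rich libraries the counts were 11 for the trend, 11 for departure, 25 for any difference, 10 at 12, 9 at 24 and 24 at 42 against 6 months. The trend count was 20 without the 6-month and 11 without the 42-month group. DESeq2 called 49 at 12 against 6 months, and limma-voom 61 for any difference. Without 1 library the counts ranged from 19 to 66 at 12, 24 to 66 at 24, 23 to 47 at 36 and 46 to 80 at 42 against 6 months, from 1 to 10 at 42 against 24 months and from 24 to 67 for departure.

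For single members, values near 0 turned in sign on the log2 scale. At 42 against 24 months miR-92a (-0.009) was 0.0144 with DESeq2 and with its size factors, 0.0139 in the 10 libraries, 0.0462 with the most abundant copy, 0.0791 with library totals, 0.0447 with 10 CPM, 0.0377 without a filter and 0.0244 without the epithelial-rich libraries. miR-17a (-0.0458) was then 0.0375 with library totals, 0.0098 with 10 CPM and 0.0039 without a filter, and miR-18a was -0.00927 with limma-voom. With library totals, against 6 months, miR-19b was -0.056 at 36 and -0.0272 at 42, and miR-92a -0.0141 and miR-17a -0.0225 at 24 months. miR-19a was 0.0256 at 36 months with the most abundant copy, miR-18a 0.00988 at 12 months without a filter, and miR-19b -0.0104 at 36 months without the epithelial-rich libraries. mir-92a-2 at 36 months (0.0234) was -0.0484 with library totals, -0.0843 without the epithelial-rich libraries and between -0.047 and 0.03996 without 1 library. The trend of miR-92a was -0.0183 a year without the 6-month group.

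With the most abundant copy the log2 ratios to miR-92a differed from 6 months by -0.0498 for miR-18a and -0.10 for miR-20a at 24 and by -0.0781 and -0.11 at 42 months, and those of miR-19a passed at -0.49 and -0.35. For pairs of members, r with age means subtracted was 0.485 (miR-18a with miR-19a) and 0.511 (miR-18a with miR-19b), no longer passing, and 0.188 (miR-19a with miR-92a) and 0.110 (miR-19b with miR-92a). miR-17a with miR-92a had r -0.0605 with library totals and -0.146 without the epithelial-rich libraries, and miR-18a with miR-92a then -0.0032.

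Without 1 library miR-18a at 12 months ranged from -0.0508 to 0.0187, miR-19b at 24 from -0.0759 to 0.11, and miR-19a from -0.0632 to 0.0113 at 36 and from -0.10 to 0.0305 at 42 months. At 42 against 24 months miR-17a ranged from -0.11 to 0.045, miR-18a from -0.11 to 0.10, miR-19b from -0.0469 to 0.17, miR-20a from -0.0533 to 0.12 and miR-92a from -0.0527 to 0.0511. Ratios to miR-92a at 24 months ranged from -0.0809 to 0.0605 for miR-17a, -0.0153 to 0.16 for miR-18a and -0.0505 to 0.0898 for miR-20a. At 42 months they ranged from -0.0938 to 0.009998, from -0.0569 to 0.12 and from -0.0284 to 0.0763, and for miR-19a from -0.26 to -0.16, where it passed without 42-month replicate 3 (adjusted exact permutation p 0.0397).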
